A study of Mus musculus with 4 samples.

Results

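The genes described here are 38 that encode laminin chains, other proteins of the basement membrane and integrin subunits, taken by symbol from a fixed list out of the 52636 genes counted in each library. They are 10 laminin chain genes, 4 genes of nidogens and heparan sulfate proteoglycans, 4 genes of the Fraser complex, *Npnt*, 12 integrin alpha subunit genes and 7 integrin beta subunit genes. RNA-seq was run on tdTomato+ cells sorted from embryonic kidneys, in 2 Control and 2 *Eya1*cKO libraries of 5000 cells each. All embryos carried the *Eya1*CreER allele and the R26-tdTomato reporter and were harvested 48 h from the start of tamoxifen gavage, near E12.5 to E12.75, and the *Eya1*cKO embryos also carried floxed *Eya1*. The Cre recombinase is made only where *Eya1* is active, so tdTomato marks cells of the *Eya1* lineage, which includes nephron progenitor cells (NPCs). Per the labels, 6 kidneys of each genotype came from 4 pregnant females, whereas the study's methods give other numbers of kidneys and females. By these methods the kidneys' suspensions were pooled ahead of the sort, and the 2 libraries of a genotype came from different portions of cells sorted at the same time. *P* values therefore measure the spread between portions of pooled cells, not between embryos.

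A basement membrane is a sheet of extracellular matrix on which epithelia, endothelia and podocytes rest. Laminins, trimers of an alpha, a beta and a gamma chain, polymerize into one network and type IV collagen into another, and nidogens and the proteoglycans perlecan and agrin link them. Integrins, each a dimer of an alpha and a beta subunit, bind these proteins from the cell surface and connect them to the actin cytoskeleton. In the developing kidney the nephron progenitors carry integrin α8β1, whose ligand nephronectin lies in the basement membrane of the ureteric bud, and the glomerular basement membrane exchanges its laminin chains as podocytes mature.

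Gene counts summed to 35411905 to 37999342 per Control library and to 17457452 to 22239293 per *Eya1*cKO library. Of all reads recorded, 12.9% to 13.9% in Control and 20.9% to 22.7% in *Eya1*cKO lay on no gene, and 6.32% to 6.69% and 12.7% to 12.9% were not aligned, and the part of these differences in the results was not tested. Reads on *Eya1* numbered 6612 and 6420 in Control 1 and 2 but 377 and 219 in *Eya1*cKO 1 and 2. The 10 NPC markers examined, among them *Six2*, *Cited1*, *Gdnf* and *Eya1* itself, summed to 1476 and 1479 CPM in Control and to 304 and 250 CPM in *Eya1*cKO, where CPM are counts per 1e6 of the library total, scaled with edgeR's TMM factors. Markers of other cells summed to 973 to 1000 CPM in Control and 3049 to 3113 in *Eya1*cKO for podocytes, to 660.0 to 671 and 1186 to 1225 CPM for endothelium, to 3049 to 3069 and 6230 to 6455 CPM for renal stroma and to 18.0 to 19.1 and 1054 to 1066 CPM for adrenal cortex and chromaffin cells, with 9, 9, 7 and 9 of 10 listed genes higher at an adjusted *P* under 0.05. Ureteric bud markers summed to 292 to 308 CPM in Control and 177 to 189 in *Eya1*cKO (2 of 10 lower). Of all genes tested 5.15% were higher and 4.41% lower, and of the adrenal list only 9 genes could be tested. Immune markers summed to 165 to 166 CPM in Control and 173 to 185 CPM in *Eya1*cKO. Schwann and neural crest markers summed to 157 to 162 CPM in Control and 113 to 123 in *Eya1*cKO (8 of 10 tested, 1 higher and 1 lower). Skeletal muscle markers summed to 129 to 145 and 65.8 to 89.2 CPM (5 of 10 tested, 1 lower), and erythroid markers to 0.888 to 1.15 and 1.28 to 1.37 CPM. No gene of the NPC, podocyte, endothelial, stromal, ureteric bud or adrenal lists was at 0 in both Control libraries. In such bulk samples fewer cells of a type and less RNA per cell cannot be told apart, and the part of these cell types in the results below was not tested.

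The log2 fold change (*Eya1*cKO over Control) was positive for 32 of the 38 genes. With edgeR's quasi-likelihood test and Benjamini-Hochberg adjustment over the 19041 genes tested, 15 of the 38 genes rose and 2 fell at an adjusted *P* under 0.05, and 21 did not pass. Of all genes tested, 9.56% passed, 5.15% higher and 4.41% lower, against 39.5% and 5.26% of the 38 genes. Abundant genes pass more often, and 25 of the 38 genes had a mean of 50 CPM or more over the 4 libraries. Of these 25, 14 rose and 2 fell, while of all 5145 genes at that level, a comparison added after the values were seen, 8.98% rose and 13.2% fell. The median log2 fold change was 0.51 over the 38 genes and 0.02 over all genes tested. Both *Eya1*cKO libraries lay above both Control libraries for 24 of the 38 genes and below them for 5, where 25.3% and 30.0% of all genes tested did so. Together the 38 genes took 0.743% and 0.747% of the gene counts in Control and 0.960% and 0.983% in *Eya1*cKO.

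**Figure D1:**
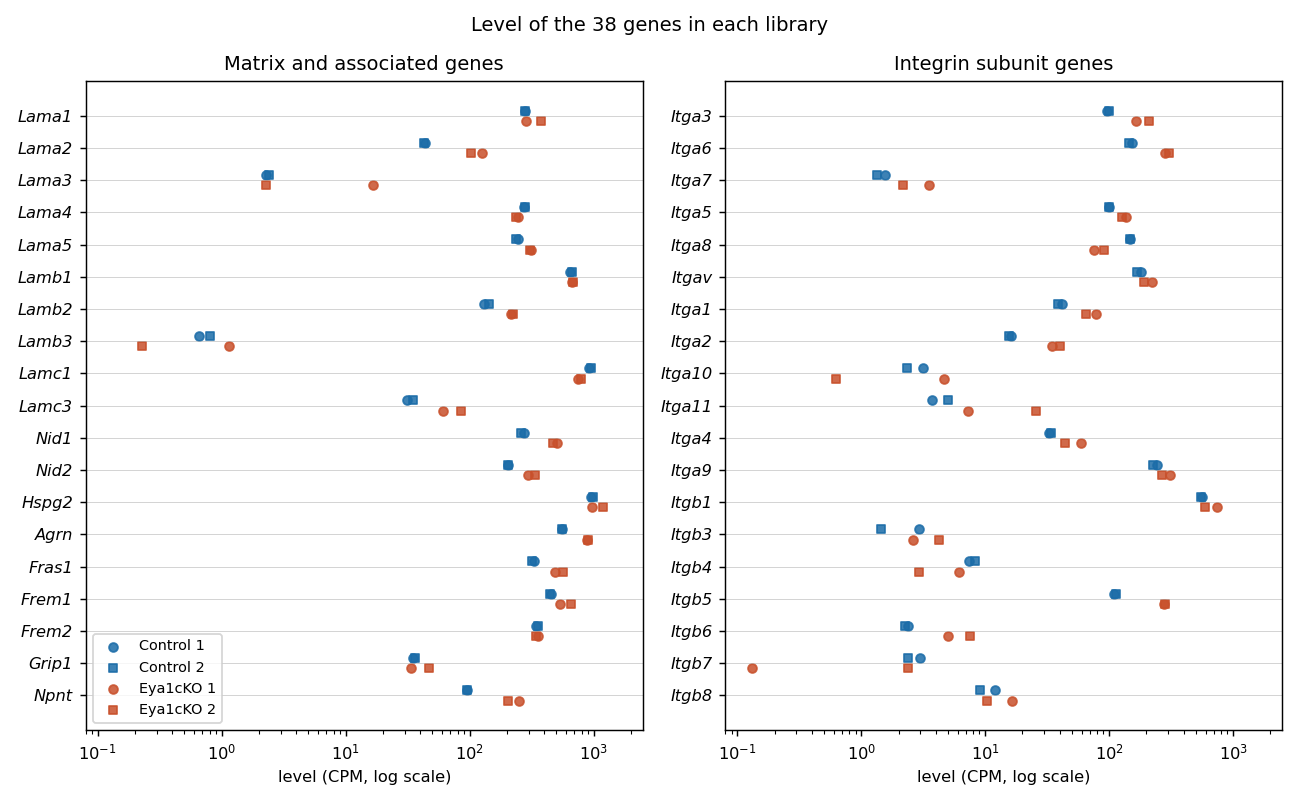
Level of each of the 38 genes in CPM (log axis) in the 2 Control (blue) and 2 *Eya1*cKO (orange) libraries, with circles for replicate 1 and squares for replicate 2. The *Eya1*cKO replicates lie far apart for *Lama3* (16.6 and 2.28 CPM), *Itga10* and *Itgb7*, and close together for *Itgb5* (279.5 and 283 CPM).

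**Figure D2:**
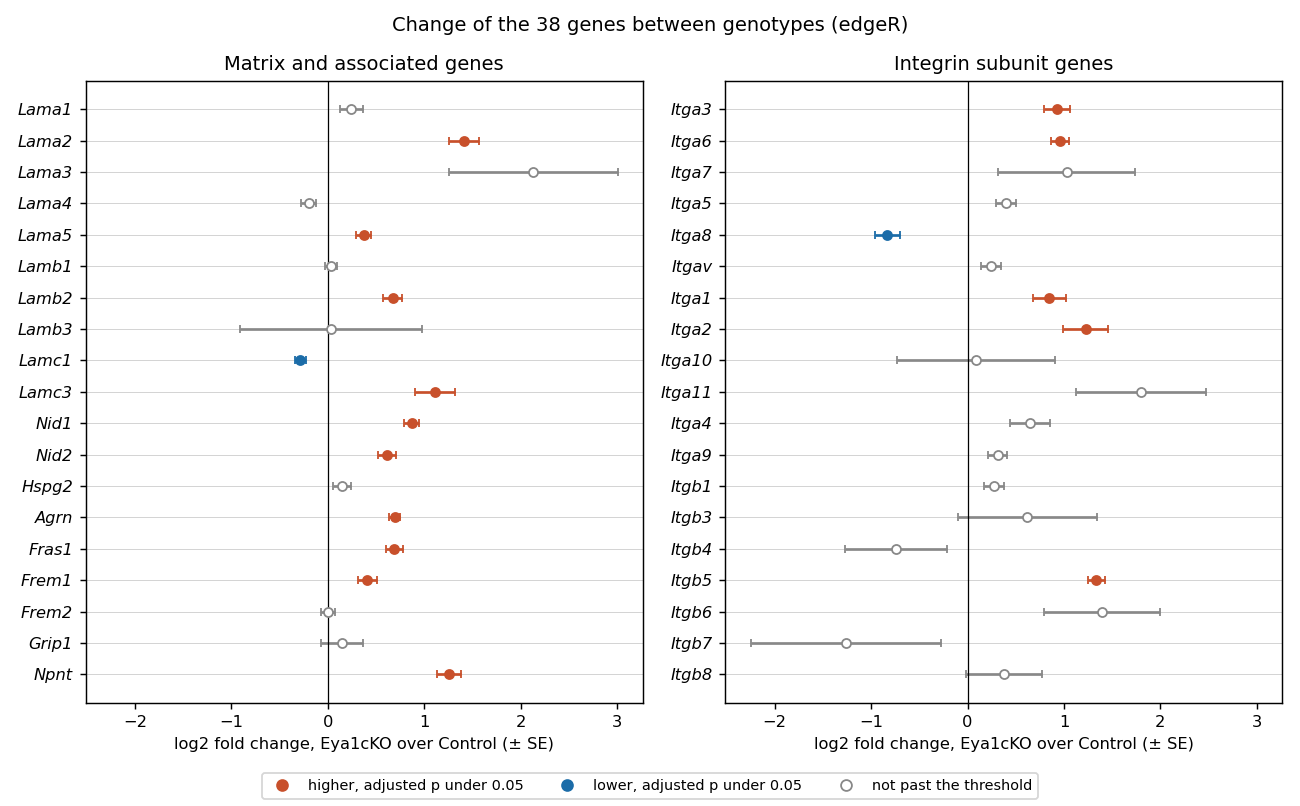
Log2 fold change of *Eya1*cKO over Control with its standard error (SE) for the 38 genes, from edgeR's quasi-likelihood test. Filled orange points are the 15 genes that rose, filled blue points the 2 that fell (*Lamc1* and *Itga8*) and open points the 21 with an adjusted *P* of 0.05 or more.

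The number of calls depended on the libraries used. Without Control 1 or without Control 2, edgeR called 0 of the 38 genes and 23 genes of all, although 15 and 14 of the 38 were higher and 2 lower at an unadjusted *P* under 0.05. Without *Eya1*cKO 1 or *Eya1*cKO 2 it called more of the 38 genes than with all 4 libraries, but also far more of all genes. In each of these fits the lone library of a genotype is assumed to vary like the other genotype's pair. With DESeq2's Wald test, run on all 4 libraries only, 17 of the 38 genes were higher and 2 lower. That test called 3113 of all genes. With the replicate number as a block in edgeR, 10 of the 38 genes were higher, 0 were lower and 621 of all genes were called. The calls of *Lama5*, *Lamc1*, *Lamc3*, *Frem1*, *Itga8*, *Itga1* and *Itga2* were lost with that block.

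Of the laminin alpha chains, *Lama2* and *Lama5* rose, and *Lama1*, *Lama3* and *Lama4* did not pass the threshold. *Lama2*, the alpha chain of muscle and nerve basement membranes, whose gene lies on chromosome 10 from 26980036 to 27619758 of GRCm38, was at 43.4 and 43.1 CPM in Control 1 and 2 and at 126 and 102 CPM in *Eya1*cKO 1 and 2. This is a log2 fold change of 1.41 (SE 0.15, adjusted *P* = 0.0034), the largest of the laminin chains past the threshold. *Lama5*, the alpha chain of mature epithelial and glomerular basement membranes (chromosome 2 from 180176373 to 180225859), was at 244 and 237 CPM in Control versus 314 and 308 CPM in *Eya1*cKO. The libraries did not overlap, and the log2 fold change of 0.37 (SE 0.08) passed the threshold (adjusted *P* = 0.03) but no longer did so without the low-count filter (adjusted *P* = 0.063).

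*Lama1*, the alpha chain of early embryonic and tubule basement membranes, was at 278 and 279.5 CPM in Control 1 and 2 and at 288 and 377 CPM in *Eya1*cKO 1 and 2, which is a log2 fold change of 0.24 (SE 0.12, adjusted *P* = 0.24) that lay mostly in *Eya1*cKO 2. *Lama4*, the alpha chain of vessel walls, had 277 and 279 CPM in Control versus 247 and 236 in *Eya1*cKO (log2 fold change -0.20, SE 0.08, adjusted *P* = 0.16). It was thus the alpha chain with both *Eya1*cKO libraries below both Control libraries, beside the endothelial markers, whose sum was higher. *Lama3*, a chain of skin and other stratified epithelia, had 80 and 90 reads in Control versus 376 and 40 in *Eya1*cKO, so that its log2 fold change of 2.13 (SE 0.87, adjusted *P* = 0.16) was -0.05 without *Eya1*cKO 1 and 2.81 without *Eya1*cKO 2 (adjusted *P* = 1e-05).

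Levels of different genes can be compared per length, as CPM per kb of exon. In Control the order of the alpha chains was *Lama1* with 28.8 ± 0.08 CPM per kb (SD, n = 2), *Lama4* with 23.0 ± 0.16, *Lama5* with 21.1 ± 0.45, *Lama2* with 2.65 ± 0.01 and *Lama3* with 0.219 ± 0.01. In *Eya1*cKO it was *Lama1* with 34.3 ± 6.5, *Lama5* with 27.3 ± 0.37, *Lama4* with 20.0 ± 0.64, *Lama2* with 6.97 ± 1.0 and *Lama3* with 0.880 ± 0.94. *Lama5* was thus below *Lama4* in Control and above it in *Eya1*cKO, and in *Eya1*cKO *Lama1* and *Lama5* differed by little more than the SD of *Lama1*. As a share of the 5 alpha chains per kb, *Lama4* made up 30.2% and 30.6% in Control and 23.5% and 21.3% in *Eya1*cKO, and *Lama2* 3.49% in both Control libraries and 8.85% and 6.79% in *Eya1*cKO.

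The beta chains differed from each other. *Lamb2*, the beta chain of the mature glomerular basement membrane and of the neuromuscular junction (chromosome 9 from 108479736 to 108490530), rose from 131 and 144 CPM in Control 1 and 2 to 215 and 224 CPM in *Eya1*cKO 1 and 2 (log2 fold change 0.67, SE 0.10, adjusted *P* = 0.0095). *Lamb1*, the widespread embryonic beta chain, was at 645 and 675 CPM in Control versus 670.2 and 682 in *Eya1*cKO, with overlapping libraries and a log2 fold change of 0.03 (SE 0.06, adjusted *P* = 0.75). Per kb, *Lamb2* made up 24.8% and 25.8% of the beta chains in Control and 34.2% and 34.8% in *Eya1*cKO, the rest being nearly all *Lamb1*. *Lamb3* had 4 to 30 reads per library and could not be compared at this depth.

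Of the 2 gamma chain genes among the 38, the more abundant fell slightly and the other rose. *Lamc1*, the gamma chain of most laminins (chromosome 1 from 153218922 to 153332786), fell from 922 and 946 CPM in Control 1 and 2 to 746 and 787 CPM in *Eya1*cKO 1 and 2, which is a log2 fold change of -0.29 (SE 0.06, adjusted *P* = 0.03). This call was lost with the legacy quasi-likelihood method (adjusted *P* = 0.051) and when all libraries were thinned to equal depth (0.050). *Lamc3* (chromosome 2 from 31887291 to 31946539) was at 31.5 and 35.3 CPM in Control versus 60.9 and 85.9 in *Eya1*cKO, a rise with a log2 fold change of 1.11 (SE 0.21, adjusted *P* = 0.023), lost without the low-count filter (0.052) and with thinning (0.050). Per kb, *Lamc3* was 4.44% and 4.82% of the sum of *Lamc1* and *Lamc3* in Control and 9.98% and 12.9% in *Eya1*cKO. The shares are given as a description, with no test (with 2 libraries against 2, a two-sided exact permutation test cannot give a P under 0.333).

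**Figure D3:**
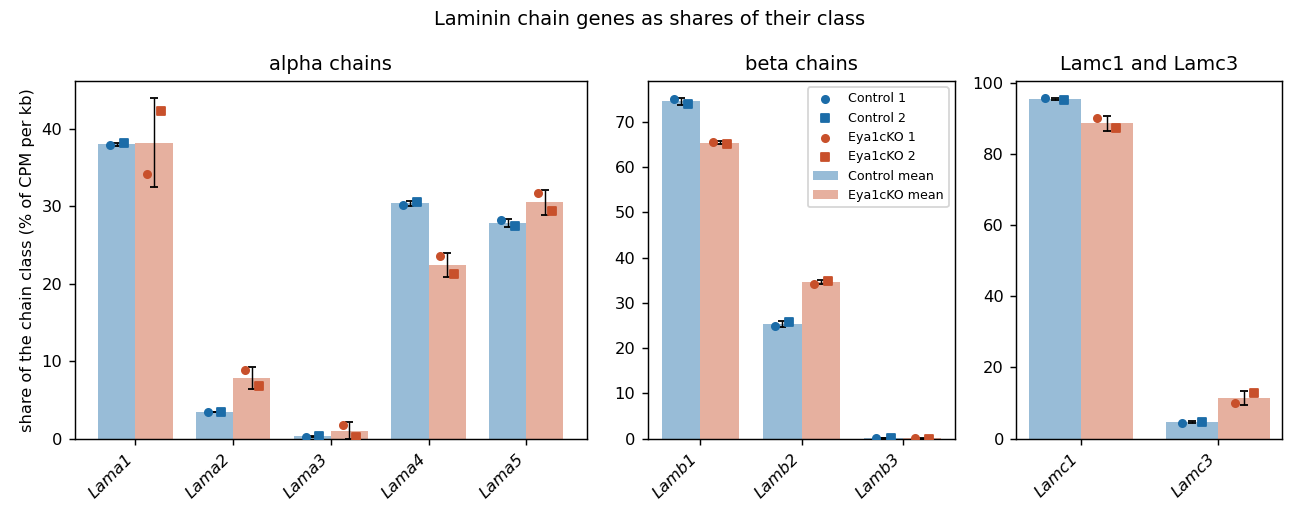
Laminin chain genes as percent of the CPM per kb of exon of the alpha chains, of the beta chains or of *Lamc1* and *Lamc3*, with bars for the mean of 2 libraries, error bars for the SD and a point for each library. The *Lamb2* bar is 25.3% in Control and 34.5% in *Eya1*cKO, *Lama4* 30.4% and 22.4%, and *Lamc3* 4.63% and 11.4%.

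Of the 4 linker genes, 3 rose. *Nid1* (chromosome 13 from 13437551 to 13512269) and *Nid2* encode the nidogens, which bind laminin and type IV collagen. *Nid1* rose from 277 and 260.4 CPM in Control 1 and 2 to 510.2 and 469.8 CPM in *Eya1*cKO 1 and 2 (log2 fold change 0.87, SE 0.08, adjusted *P* = 0.0019). *Nid2* was at 206 CPM in both Control libraries and at 295 and 338 CPM in *Eya1*cKO (log2 fold change 0.62, SE 0.09, adjusted *P* = 0.011), and 8.45% of its exonic length lies opposite exons of a gene on the other strand. *Agrn*, the gene of agrin, a heparan sulfate proteoglycan of the glomerular basement membrane and the neuromuscular junction (chromosome 4 from 156165290 to 156197488), had 553 and 561 CPM in Control versus 894 and 907 in *Eya1*cKO, and its change of 0.69 on the log2 scale had the smallest SE of the genes that rose (0.06, adjusted *P* = 0.0014). *Hspg2*, which encodes perlecan, was the most abundant of the 38 genes by CPM in both genotypes and did not pass the threshold. It was at 954 and 989 CPM in Control versus 970.0 and 1188 in *Eya1*cKO (log2 fold change 0.15, SE 0.09, adjusted *P* = 0.34). Its log2 fold change was 0.28 without *Eya1*cKO 1 and -0.02 without *Eya1*cKO 2.

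The Fraser complex is an assembly of large matrix proteins below epithelia that is needed for adhesion of skin and for outgrowth of the ureteric bud. Of its genes *Fras1* and *Frem1* rose and *Frem2* did not change detectably. *Fras1* (chromosome 5 from 96373955 to 96784728) was at 332 and 319 CPM in Control 1 and 2 and at 490.1 and 563 CPM in *Eya1*cKO 1 and 2 (log2 fold change 0.69, SE 0.09, adjusted *P* = 0.0059). For *Frem1* the values were 452 and 444 CPM in Control versus 536 and 654 CPM in *Eya1*cKO, which gave a log2 fold change of 0.41 (SE 0.10) just past the threshold (adjusted *P* = 0.048), which it missed without the low-count filter (0.1), with the legacy method (0.087) and with thinning (0.078). *Frem2*, with 344 and 356 CPM in Control versus 356 and 342 in *Eya1*cKO, had a log2 fold change of -0.0023 (SE 0.07, adjusted *P* = 0.99). *Grip1*, which encodes a PDZ adaptor that brings *Fras1* and *Frem2* proteins to the cell surface, was less abundant, between 33.8 and 46.7 CPM in the 4 libraries (log2 fold change 0.15, SE 0.22, adjusted *P* = 0.70).

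Nephronectin and its receptor subunit moved in opposite directions. The starts of these genes, *Npnt* and *Itga8*, and of *Itgb5*, the beta subunit gene with the lowest adjusted *P*, are shown by the 100 bases before the RefSeq start site on GRCm38, 5′ to 3′ on the strand of the gene, with GC boxes (GGGCGG on either strand) in capitals. They lie at chr3:132950292-132950391 (minus strand), chr2:12301945-12302044 (minus strand) and chr16:33829565-33829664 (plus strand).
*Npnt*: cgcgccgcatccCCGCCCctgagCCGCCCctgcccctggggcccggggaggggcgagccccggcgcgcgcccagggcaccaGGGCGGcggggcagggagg
*Itga8*: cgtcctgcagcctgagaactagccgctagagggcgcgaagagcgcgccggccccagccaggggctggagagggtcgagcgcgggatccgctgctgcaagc
*Itgb5*: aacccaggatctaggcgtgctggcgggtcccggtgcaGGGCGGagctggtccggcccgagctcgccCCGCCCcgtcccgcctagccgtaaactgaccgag
The GC content of these stretches was 87.0%, 72.0% and 73.0%, with 3, 0 and 2 GC box matches. RefSeq windows from 250 bases before to 50 after a start were matched for 27 of the 38 genes (35 windows), of which 48.6% held a GC box, against 35.7% of all 32851 windows. A TATA box (TATAAA) was in 2.86% of them, that of *Grip1*, against 13.6% of all. The core letters of the SIX-factor motif (TCAGGTTTC) and of the left part of the REST motif (TTCAGCACC) were in 0 of the 35 windows and in 0.429% and 0.371% of all, both strands being searched.

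*Npnt* (chromosome 3 from 132881745 to 132950291) encodes nephronectin, a secreted RGD protein that the ureteric bud and later podocytes make. It was at 94.9 and 96.3 CPM in Control 1 and 2 and at 252 and 203 CPM in *Eya1*cKO 1 and 2, a rise with a log2 fold change of 1.26 (SE 0.13, adjusted *P* = 0.0028). Of the 10 podocyte markers 9 rose in the same libraries, while the sum of the ureteric bud markers was lower. *Itga8* (chromosome 2 from 12106632 to 12301922) encodes the alpha subunit of the nephronectin receptor, which marks metanephric mesenchyme. It fell from 148 and 146 CPM in Control to 75.5 and 91.4 CPM in *Eya1*cKO, to 56.3% of the Control level (log2 fold change -0.83, SE 0.13, adjusted *P* = 0.011). Of the 19 integrin genes *Itga8* was the only one that fell, and the 10 NPC markers had a median log2 fold change of -2.50 over the same libraries.

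The other RGD-binding alpha subunits did not pass the threshold. *Itga5*, whose subunit forms the fibronectin receptor, had 100.4 and 99.7 CPM in Control versus 136 and 127 CPM in *Eya1*cKO, which gave a log2 fold change of 0.40 (SE 0.11) that did not pass the threshold (adjusted *P* = 0.066) but passed with DESeq2's test (adjusted *P* = 0.026). *Itgav*, whose subunit pairs with several beta subunits, was at 181 and 169 CPM in Control versus 220.2 and 192 in *Eya1*cKO (log2 fold change 0.24, SE 0.10, adjusted *P* = 0.18). Both genes had their *Eya1*cKO libraries above those of Control. Per kb of exon, *Itga8*, *Itga5* and *Itgav* were at 20.0 ± 0.17, 20.3 ± 0.10 and 16.3 ± 0.82 in Control and at 11.3 ± 1.5, 26.7 ± 1.4 and 19.2 ± 1.9 in *Eya1*cKO. *Itga8* and *Itga5* were thus at like levels in Control, and in *Eya1*cKO *Itga8* was the lowest of the 3.

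Of the laminin-binding alpha subunits, both abundant ones rose by a like factor. *Itga3* (chromosome 11 from 95044474 to 95076801), the alpha subunit of the main podocyte laminin receptor, was at 95.2 and 99.5 CPM in Control 1 and 2 and at 165 and 208 CPM in *Eya1*cKO 1 and 2 (1.90-fold, log2 fold change 0.93, SE 0.13, adjusted *P* = 0.0093). *Itga6* (chromosome 2 from 71745616 to 71858416), the alpha subunit of the laminin receptors of epithelia and endothelia, was at 154 and 146 CPM in Control versus 281 and 302 CPM in *Eya1*cKO (1.94-fold, log2 fold change 0.96, SE 0.09, adjusted *P* = 0.002). Their libraries did not overlap. *Itga7*, of muscle, had 38 to 80 reads per library and a log2 fold change of 1.03 with an SE of 0.71 (adjusted *P* = 0.38). *Itgb4*, the partner of *Itga6* in hemidesmosomes, was sparse, with 258 and 311 reads in Control versus 138 and 51 in *Eya1*cKO (log2 fold change -0.74, SE 0.53, adjusted *P* = 0.40, and -1.45 without *Eya1*cKO 1, past the threshold).

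Of the collagen-binding alpha subunits, *Itga1* and *Itga2* rose. *Itga1*, found on stromal, smooth muscle and endothelial cells, had 41.9 and 38.4 CPM in Control versus 78.4 and 64.8 CPM in *Eya1*cKO (log2 fold change 0.85, SE 0.17, adjusted *P* = 0.027), a call lost without the low-count filter (0.06), with the legacy method (0.054) and with thinning (0.050). *Itga2* had 16.2 and 15.7 CPM in Control versus 34.8 and 40.4 CPM in *Eya1*cKO (log2 fold change 1.22, SE 0.23, adjusted *P* = 0.023). *Itga11*, a subunit of fibroblasts, had 131 and 189 reads in Control versus 163 and 452 in *Eya1*cKO. Its log2 fold change of 1.80 (SE 0.68, adjusted *P* = 0.14) was 0.69 without *Eya1*cKO 2 and 2.53 without *Eya1*cKO 1 (adjusted *P* = 1.7e-06), and it passed with DESeq2's test (adjusted *P* = 0.035). *Itga10* had 11 to 110 reads per library, with overlapping genotypes, and exons of a gene on the same strand cover 33.5% of its exonic length.

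*Itga9* and *Itga4* form a related pair of alpha subunits, which bind tenascin and vascular cell adhesion ligands among others. *Itga9* had the highest mean of the alpha subunits per kb in both genotypes (37.5 ± 4.2 in *Eya1*cKO, within the spread of *Itga3* with 32.6 ± 5.4), at 242 and 224 CPM in Control versus 311 and 266 in *Eya1*cKO (log2 fold change 0.31, SE 0.10, adjusted *P* = 0.10). *Itga4* had 32.7 and 34.2 CPM in Control versus 59.6 and 43.8 CPM in *Eya1*cKO (log2 fold change 0.65, SE 0.21, adjusted *P* = 0.10). Neither passed the threshold, although both had the *Eya1*cKO libraries above the Control libraries.

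Of the beta subunits, *Itgb5* rose and the other 6 did not pass. *Itgb5* (chromosome 16 from 33829665 to 33949338), whose subunit pairs with that of *Itgav* to bind vitronectin, was at 109 and 114 CPM in Control 1 and 2 and at 279.5 and 283 CPM in *Eya1*cKO 1 and 2. The log2 fold change of 1.34 (SE 0.09, adjusted *P* = 5.9e-04) had the lowest adjusted *P* of the 38 genes. *Itgb1*, the common partner of most alpha subunits, was the most abundant of the 38 genes per kb in both genotypes, with 559.5 and 548 CPM in Control versus 742 and 596 in *Eya1*cKO (log2 fold change 0.28, SE 0.10, adjusted *P* = 0.13). Of all beta subunits per kb, including *Itgb2* of leukocytes, *Itgb5* made up 17.7% and 18.8% in Control and 29.8% and 34.3% in *Eya1*cKO, and *Itgb1* 79.4% and 78.6% in Control and 68.8% and 62.8% in *Eya1*cKO. *Itgb3*, *Itgb6*, *Itgb7* and *Itgb8* were below 20 CPM in every library. Of these, *Itgb6*, a subunit of epithelia, had 84 and 85 reads in Control versus 113 and 133 in *Eya1*cKO (log2 fold change 1.39, SE 0.60, adjusted *P* = 0.18), and *Itgb7*, of leukocytes, had 105 and 90 reads in Control versus 3 and 42 in *Eya1*cKO (-1.26, SE 0.99, adjusted *P* = 0.44). The value of *Itgb7* rested on the single libraries, being -0.18 without *Eya1*cKO 1 and -4.32 without *Eya1*cKO 2 (adjusted *P* = 0.013). *Itgb3* and *Itgb8* had overlapping libraries.

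**Figure D4:**
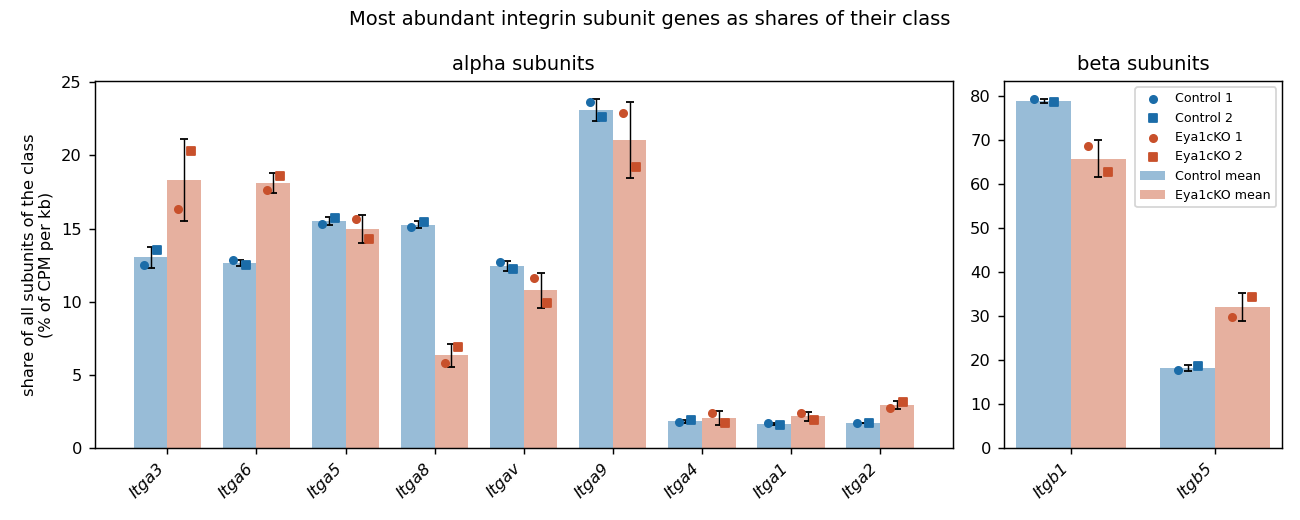
The 9 most abundant integrin alpha and 2 most abundant beta subunit genes as percent of the CPM per kb of exon of all alpha or beta subunits, with bars for the mean of 2 libraries, error bars for the SD and a point for each library. *Itga8* is 15.3% in Control and 6.35% in *Eya1*cKO, *Itga6* 12.7% and 18.1%, and *Itgb5* 18.2% and 32.0%.

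The 15 genes that rose thus included both nidogens, the laminin-binding alpha subunits above 50 CPM and the laminin chains *Lama2*, *Lama5*, *Lamb2* and *Lamc3*, while *Lamb1*, *Frem2* and *Hspg2*, all over 300 CPM, had log2 fold changes between -0.0023 and 0.15. By *Eya1*cKO level per kb the order of the leading genes was *Itgb1*, *Agrn*, *Lamc1*, *Itgb5* and *Hspg2*, whereas in Control it was *Itgb1*, *Lamc1*, *Hspg2*, *Lamb1* and *Agrn*. *Hspg2* at 67.9 ± 1.7 and *Lamb1* at 66.5 ± 2.2 CPM per kb in Control did not differ beyond their spread. *Agrn* went from 59.9 ± 0.61 to 96.9 ± 0.99 CPM per kb, and in *Eya1*cKO it was close to *Lamc1*, at 92.7 ± 3.6. In *Eya1*cKO *Hspg2* at 75.4 ± 10.8 differed by less than its own spread from *Itgb5* at 79.2 ± 0.74, *Nid1* at 70.6 ± 4.1 and *Lamb1* at 68.2 ± 0.85. *Npnt* went from place 18 of 38 to place 9 and *Itgb5* from place 9 to place 4, while *Itga8* went from place 17 to place 23.

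Other basement membrane genes were examined by a list of 23 genes, of which 13 rose, 1 fell and 9 did not pass (median log2 fold change 0.85 against 0.02 over all genes tested, of which 5.15% rose and 4.41% fell). *Col4a1*, *Col4a2*, *Col15a1* and *Col18a1*, genes of basement membrane collagens, and *Sparc*, of a collagen-binding matrix protein, were those of smallest *P*, with log2 fold changes of 0.77, 0.65, 1.12, 0.59 and 0.93 (adjusted *P* from 3.8e-04 to 0.0033). The gene that fell, named after its values were seen, was *Hmcn1*, of the large matrix protein hemicentin, from 254 to 109 CPM (log2 fold change -1.19, SE 0.20, adjusted *P* = 0.014), a call lost with the legacy method. *Col4a3*, of a chain of the mature glomerular network, had 117 and 46 reads in Control versus 255 and 206 in *Eya1*cKO (log2 fold change 2.35, SE 0.57, adjusted *P* = 0.049, and 1.76 to 3.20 when each library was left out in turn), a call lost without the low-count filter, with the legacy method and with thinning, and is also named after its values were seen. *Col4a4*, also named after its values were seen, had 217 and 211 reads in Control versus 700 and 117 in *Eya1*cKO. It did not pass (log2 fold change 1.77, SE 0.66, adjusted *P* = 0.14), and its log2 fold change ran from 0.16 to 2.37 when each library was left out in turn. None of these 23 genes is on a marker list.

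On the cell side, 26 genes of the integrin adhesion complex were examined, of which 9 rose and 17 did not pass (median log2 fold change 0.44), where 5.15% of all genes tested rose. Those of smallest *P* were *Tns3*, *Tns1*, *Tln1*, *Tgfb1i1* and *Tln2*, which encode tensins, talins and a paxillin relative, with log2 fold changes of 0.83, 0.68, 0.47, 1.12 and 0.60 (adjusted *P* from 0.0045 to 0.017). Talin, the product of *Tln1*, activates integrins by binding the tails of beta subunits, and tensin links them to actin.

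Of 13 genes of other integrin ligands 3 rose, 1 fell and 9 did not pass, while of all genes tested 5.15% rose and 4.41% fell. *Postn*, of the stromal protein periostin and also one of the stromal markers above, rose from 81.4 to 309 CPM (log2 fold change 1.92, SE 0.10, adjusted *P* = 1.9e-04) and *Fbn1*, of fibrillin, by 0.67 (SE 0.08, adjusted *P* = 0.0059). *Spp1*, of osteopontin, had 11 and 1 reads in Control versus 88 and 153 in *Eya1*cKO (log2 fold change 5.14, SE 1.12, adjusted *P* = 0.027), a call lost with the legacy method and with thinning, and its log2 fold change ran from 4.22 to 7.56 when each library was left out in turn. *Tnc*, of tenascin, went from 67.0 to 40.8 CPM (-0.74, SE 0.18), and its call (adjusted *P* = 0.049) was lost with DESeq2's size factors, with library totals alone, without the low-count filter, with the robust and legacy methods and with thinning. *Fn1*, the fibronectin gene, named for its level after the values were seen, was at 1347 CPM in Control and 1521 CPM in *Eya1*cKO (log2 fold change 0.17, SE 0.05, adjusted *P* = 0.087), and it passed with library totals alone and with DESeq2's Wald test. Of 7 integrin genes of leukocytes and platelets 5 could be tested and 0 passed in edgeR or with DESeq2's test, with 1 at an unadjusted *P* under 0.05 in each, and their sum of 11.4 to 18.2 CPM per library left little signal to compare.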

How the data were processed

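tdTomato+ cells were sorted from Control and *Eya1*cKO embryonic kidneys. Libraries were made from their RNA with a SMARTer stranded kit and sequenced as single reads. Per the study's methods, the authors aligned reads to mm10 with HISAT2 and counted them per gene of Ensembl with HTSeq. The deposited values are raw counts, with 1 file per library. Tool versions and the strand setting of the counting are not given in the sources used here, so reads of overlapping genes on opposite strands may be mixed (11 of the 38 genes, 0.111% to 8.45% of their exonic length).

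Genes were filtered with filterByExpr (minimum count 10), which left 19041, scaled with TMM and tested with edgeR 4.0.16 (R 4.3.3, quasi-likelihood F test, 2 Control against 2 *Eya1*cKO libraries, 1 fit over all genes) with Benjamini-Hochberg adjustment and a threshold of 0.05. The standard error is the log2 fold change divided by the root of F. The code was also run on simulated data in which both genotypes had the same spread. The libraries here differ in spread, so that run gives no support to the calls. CPM are counts over TMM-scaled totals, and CPM per kb use the exonic length of GENCODE annotation of GRCm38, the build of mm10. Rows of HTSeq that name no gene were left out of the totals. Counting error allows up to 0.0801 to 0.171 CPM per library for a count of 0, taken as 3 counts. Sequences are from RefSeq (GRCm38.p6).

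The libraries of a genotype differed by more than counting error (chi-square per degree of freedom 9.37 in Control and 47.2 in *Eya1*cKO) and were kept as 2 samples each. Members and gene lists were chosen with earlier results of these data known, and 1 gene was left out of the further lists and is not reported here. Values per library are given, as CPM or reads, for all called members and for others over 50 CPM. Of each further list, up to 5 called genes of smallest *P* are named, with their log2 fold changes. Alternatives were DESeq2 1.42.0 (size factors, and its Wald test), unscaled library totals, leaving out the filter on low counts, a minimum of 10 counts in each library, the robust and the legacy form of the quasi-likelihood test, the replicate number as a block, thinning to equal depth and leaving out each library.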

Additional observations from a re-analysis of the deposited data

How the results depend on the processing

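Of the 38 genes 15 were higher and 2 lower in the reported analysis. Without the low-count filter 11 were higher, and with DESeq2's Wald test 17. The number lower was 1 with the legacy quasi-likelihood method and 1 with thinning to equal depth. Over all genes the 1820 calls became 1055 without the low-count filter, 3113 with DESeq2's Wald test, 1096 with the legacy method and 1148 with thinning. The median log2 fold change of all genes was 0.02, and it was -0.21 without the filter and -0.18 with DESeq2's Wald test. Of the further lists, the basement membrane genes called were 9 without the filter and 9 with thinning (14 in the reported analysis), and the other integrin ligands called were 2 with the legacy method and with thinning (4 in the reported analysis). Leaving out each library in turn gave 0 to 21 higher and 0 to 4 lower of the 38 genes, 23 to 7925 calls over all genes, and 1 to 21 basement membrane genes, 0 to 18 adhesion complex genes and 1 to 8 other ligands called. In these fits the remaining library is assumed to vary like the other genotype's pair.

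Replicate numbers are shared by the genotypes, and deviations of same-numbered libraries from their group means correlated by 0.0062. With 2 pairs this cannot show whether same-numbered libraries share a batch, and they were not treated as pairs in the reported analysis. With the replicate block 10 of the 38 genes were higher and 0 lower in edgeR (2 lower at an unadjusted *P* under 0.05), and the calls of *Lama5*, *Lamc1*, *Lamc3*, *Frem1*, *Itga8*, *Itga1* and *Itga2* were lost. The block left 621 calls over all genes, 9 basement membrane genes, 2 adhesion complex genes and 2 other ligands. Among the 38 genes, no direction of a called gene reversed under the alternatives run. Of the genes under 20 CPM, *Lamb3* and *Itgb7* had SEs of 0.94 and 0.99, and 3 counts, the limit for a count of 0, were 0.0801 to 0.171 CPM.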
